A study of Mus musculus with 8 samples.

Results

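Wild-type mouse embryos at E9.25, with 9 to 11 somites, had been cut into an anterior piece, which held the head up to and including pharyngeal arch 1, and a posterior piece, which held pharyngeal arch 2 and everything behind it. RNA levels of the 2 pieces were compared in 4 of the 8 libraries of the series: anterior libraries 153 and 156 and posterior libraries 153 and 156. The other 4 libraries came from embryos homozygous for a Gcnf mutant allele and entered only an alternative fit. The labels give the wild-type embryos no treatment and name no strain. The labels also do not say whether a library is 1 embryo or a pool, or whether a number marks the same embryo in both regions, so p-values here measure only the spread between these libraries. In each wild-type library the Y-linked gene Ddx3y was between 26.2 and 31.9 TPM and Xist, the RNA of the inactive X chromosome, was at most 0.0476 TPM. The labelled regions matched their defining genes in all 4 libraries, with Otx2 of the forebrain and midbrain at 117 TPM or more in front and at most 2.66 TPM behind, and the trunk gene Hoxb9 at most 0.324 TPM in front and at 194 TPM or more behind.

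A mouse embryo of this age has a neural tube divided into forebrain, midbrain, hindbrain and spinal cord, a looping heart behind the head, paired somites along the trunk, and a tail bud that still adds new tissue. Position along this axis is read out by homeobox genes: Otx genes mark the front of the brain, and the clustered Hox genes mark the hindbrain and trunk in nested domains that end at different levels. Retinoic acid made in trunk mesoderm, and Fgf and Wnt proteins made in the tail bud, are known signals in setting these domains.

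Expression is given as TPM, a level per transcript length scaled to the same total in every library. Reads in genes numbered 27064113 to 48126248 per library, with 24727 to 26746 genes above 0. In these libraries 3 reads in a gene of 1 kb corresponded to 0.213 to 0.403 TPM, a floor that covers counting error only. Across genes, log2 values of the 2 libraries of a region correlated with r = 0.992 in each region (genes are not independent replicates). Differences below are posterior minus anterior in log2(TPM + 1) ± standard error. They understate the change of genes at low levels. Since the tissue is bulk, fewer cells of a type and less RNA per cell cannot be told apart.

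The promoters of genes with the largest differences show what sequence lies in front of them. RefSeq promoter windows (GRCm38.p6) of 250 bases before the start were read for genes with 1 window in the table. Of the 30 genes with the largest differences, 17 had such a window. The 5 below are those that held a searched motif and no base of a GENCODE exon. Capitals mark the searched letters on either strand: TTTATG or CATAAA, a Cdx-type motif; TAATTA, a homeodomain core; AGGTGT or ACACCT, a T-box-type motif; TATAAA or TTTATA, the TATA box letters; and TAATCC or GGATTA, an Otx-type motif, of which none of the 5 windows held a copy. The searched motifs differ in letters but can share bases where they lie next to each other. Hoxb8, Nepn and Afp were higher in posterior pieces, Tal2 and Wnt8b in anterior pieces.
Hoxb8: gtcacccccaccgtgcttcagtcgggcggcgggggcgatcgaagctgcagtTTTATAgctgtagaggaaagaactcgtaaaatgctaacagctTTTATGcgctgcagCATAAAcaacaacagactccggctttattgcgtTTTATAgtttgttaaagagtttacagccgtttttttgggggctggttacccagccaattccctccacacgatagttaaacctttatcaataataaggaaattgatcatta
Nepn: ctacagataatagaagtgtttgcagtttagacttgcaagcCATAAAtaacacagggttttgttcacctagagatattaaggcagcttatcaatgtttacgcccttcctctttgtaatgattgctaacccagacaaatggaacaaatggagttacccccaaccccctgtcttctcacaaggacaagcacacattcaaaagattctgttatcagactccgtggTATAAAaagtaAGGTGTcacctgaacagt
Afp: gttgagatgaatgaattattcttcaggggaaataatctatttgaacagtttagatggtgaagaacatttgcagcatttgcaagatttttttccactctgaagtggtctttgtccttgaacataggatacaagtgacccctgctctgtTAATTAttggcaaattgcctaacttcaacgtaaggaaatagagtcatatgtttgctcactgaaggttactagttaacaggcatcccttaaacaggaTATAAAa
Tal2: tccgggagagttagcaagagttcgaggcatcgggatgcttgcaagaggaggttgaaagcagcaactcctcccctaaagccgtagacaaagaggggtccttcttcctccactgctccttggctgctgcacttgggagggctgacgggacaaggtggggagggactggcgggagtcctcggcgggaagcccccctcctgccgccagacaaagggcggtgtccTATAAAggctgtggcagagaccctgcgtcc
Wnt8b: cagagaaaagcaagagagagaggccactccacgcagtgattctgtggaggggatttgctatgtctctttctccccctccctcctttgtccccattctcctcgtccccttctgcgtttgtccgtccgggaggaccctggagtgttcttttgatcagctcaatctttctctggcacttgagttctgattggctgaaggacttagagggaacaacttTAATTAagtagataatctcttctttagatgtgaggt
The window of Hoxb8 (chr11:96281655-96281904, plus strand) held both orientations of the Cdx-type motif, 157 and 143 bases before the start, and TATA letters at 199 and 110 bases. Nepn (chr10:52391358-52391607, plus strand) had one at 210 bases, a TATA match at 29 bases and a T-box-type match at 18 bases. Tal2 (chr4:53779451-53779700, plus strand) had a TATA match at 30 bases, Wnt8b (chr19:44493222-44493471, plus strand) a homeodomain core at 36 bases, and Afp (chr5:90490464-90490713, plus strand) a homeodomain core at 103 bases and a TATA match at 7 bases. A match is a stretch of letters, not a bound site. Over the 8419 tested genes with a single window, 5.64% of windows held the Cdx-type letters, 2.2% the homeodomain core, 9.17% the T-box-type letters, 6.16% the TATA letters and 5.07% the Otx-type letters. In the 447 windows of genes at least 2-fold higher in posterior pieces these shares were 10.5%, 4.47%, 14.1%, 12.1% and 6.04%. In the 185 windows of genes at least 2-fold lower they were 5.95%, 3.24%, 9.19%, 10.3% and 5.41%. Base composition moved with these shares: the median number of CG pairs per window was 16 over all tested genes, 8 in the higher genes and 13 in the lower genes. Its part in the motif shares was not tested.

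Of 15436 genes tested, 3464 (22.4%) differed between the regions at an adjusted p under 0.05, of which 1637 (10.6% of all tested) were higher and 1827 (11.8%) lower in posterior pieces. Small differences made up most of the calls. At 2-fold or more on the log2(TPM + 1) scale, 816 genes (5.29%) were higher and 363 (2.35%) lower. At 8-fold or more the counts were 124 higher and 25 lower, and at 32-fold or more 25 and 3. The median difference of all tested genes was -0.10, and a median-of-ratios scaling that sets this median to 0 turned the split from 47.3% of calls higher to 60.7% higher (2135 higher and 1381 lower). The highest entry in these libraries, Mir6236, annotated as a microRNA within ribosomal RNA sequence, was at 19019 and 24888 TPM in anterior libraries 153 and 156 and at 39752 and 65297 TPM in posterior libraries 153 and 156. Its part in the median shift was not tested. The filter on low values was reached through the posterior libraries alone by 527 genes and through the anterior libraries alone by 357 genes, and such genes could only differ in that direction. A gene is said to reach the filter in both regions where at least 1 library of each region was at 1 TPM or more. The libraries of the regions did not overlap in 21.1% of tested genes with the posterior above and in 43.5% with the anterior above.

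**Figure D1:**
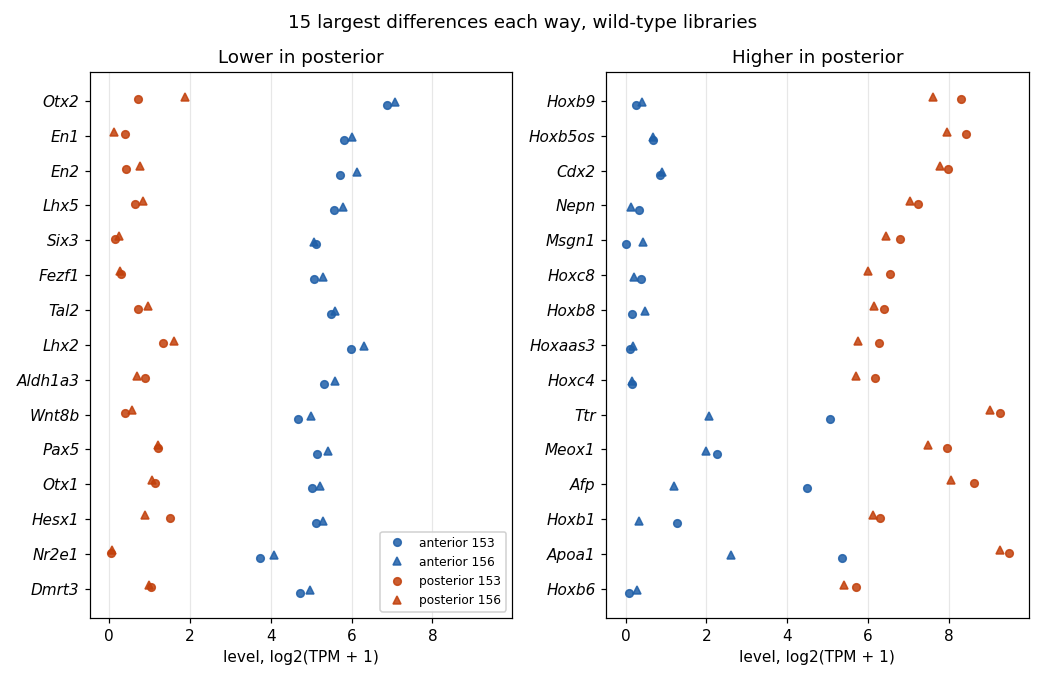
Levels as log2(TPM + 1) on the x axis of the 15 genes with the largest differences each way (y axis), with 1 point per wild-type library: blue for anterior, orange for posterior, circles for library 153 and triangles for library 156. The groups are apart in every gene shown; the anterior libraries are far from each other in Ttr, Afp and Apoa1.

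Among the 15 largest differences towards the posterior were 6 protein-coding Hox genes with Hoxb5os and Hoxaas3, 2 transcripts antisense to Hox genes, and the trunk and gut regulators Cdx2, Msgn1 and Meox1. Hoxb9 (ENSMUSG00000020875, mm10 chromosome 11, 96271457 to 96276595, plus strand) was at 0.207 and 0.324 TPM in the anterior libraries, from 5 and 8 reads, and at 317 and 194 TPM in the posterior libraries. Its difference was 7.62 ± 0.20 (adjusted p = 1e-08). The library kit did not mark strand, so Hoxb5os (7.51 ± 0.15) and Hoxaas3 (5.86 ± 0.18) cannot be told apart from transcripts of the Hox genes they overlap. Nepn, which encodes a small leucine-rich proteoglycan of the gut endoderm, rose from 0.267 and 0.104 TPM to 150 and 130 TPM (6.90 ± 0.14, adjusted p = 2.1e-09). The remaining names were Ttr, Afp and Apoa1, serum proteins of the visceral endoderm and yolk sac. In those the anterior libraries stood apart from each other, as given below.

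Towards the anterior, 14 of the 15 largest differences encode transcription factors or secreted signals of the early brain, and the other, Aldh1a3, encodes a retinoic acid enzyme. Otx2 (ENSMUSG00000021848, chromosome 14, 48657677 to 48673819, minus strand), which the forebrain and midbrain require, was at 117 and 133 TPM in anterior libraries and at 0.637 and 2.66 TPM in posterior libraries (-5.68 ± 0.29, adjusted p = 4.9e-07). En1, an organizer gene of the midbrain-hindbrain boundary, was at 55.1 and 63.3 against 0.307 and 0.0813 TPM (-5.66 ± 0.15). The posterior values of En1 came from 6 and 3 reads, close to the floor. Lhx5, a LIM homeobox gene of the forebrain, was at 46.5 and 54.6 against 0.55 and 0.793 TPM (-4.95 ± 0.15, adjusted p = 1.4e-08). Tal2, a bHLH factor of the midbrain, was at 44 and 47.4 against 0.633 and 0.934 TPM (-4.71 ± 0.14). Nr2e1, the orphan receptor Tlx of the forebrain, reached only 12.3 and 15.9 TPM in front and 1 and 2 reads behind. X-linked genes stood outside the rule for these lists; Irs4, an insulin receptor substrate, at 105 and 119 against 3.35 and 3.15 TPM, and Eras, at 43.9 and 56.9 against 2.5 and 3.5 TPM, were named after their values were seen.

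**Figure D2:**
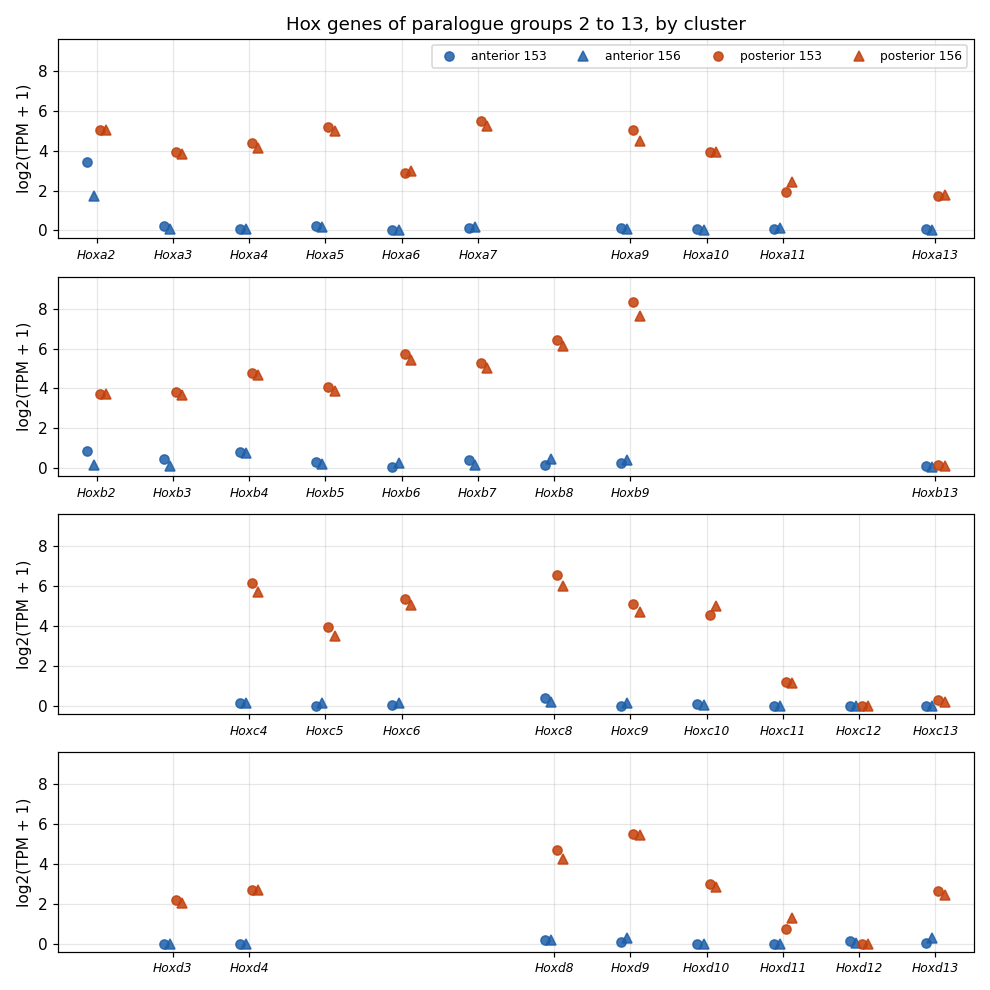
Levels as log2(TPM + 1) on the y axis of Hox genes of paralogue groups 2 to 13, in 4 panels for the clusters and by paralogue group along the x axis, 1 point per wild-type library (blue anterior, orange posterior). Anterior points lie below 1 except in Hoxa2, and posterior points in groups 11 to 13 lie below 3.

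Hox genes, the homeobox genes of the hindbrain and trunk, were higher behind the cut in every tested member: 34 of the 39 in the table were tested and 34 called. Of these, 31 reached the filter only through the posterior libraries, so their direction was set by the filter. Hoxa2 and Hoxb1, genes whose front borders lie in the hindbrain, were among those that reached it in both regions. Hoxa2, the gene that sets the identity of arch 2, was at 9.61 and 2.29 against 31.9 and 32.3 TPM (2.48 ± 0.40, adjusted p = 0.0015). Hoxb1 was at 1.42 and 0.27 against 77.7 and 69.2 TPM (5.41 ± 0.25). In both genes anterior library 153 was above anterior library 156.

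Levels within the posterior piece differed by paralogue group, the rank of a gene along its cluster. Summed over members, groups 8 and 9 reached 627 and 434 TPM in posterior libraries 153 and 156, groups 1 to 3 reached 307 and 289 TPM, groups 4 and 5 reached 188 and 153 TPM, and groups 6 and 7 reached 179 and 148 TPM. Groups 10 to 13 together reached 56.8 and 65.7 TPM. Hoxb9 alone made up 317 and 194 TPM of groups 8 and 9, and the sums compare unequal numbers of genes. Within each of groups 4 and 5 and 8 and 9, all 7 members were higher in posterior library 153 than in 156. The median difference was 3.59 for groups 1 to 3, 3.95 for groups 4 and 5, 5.09 for groups 6 and 7, and 5.29 for groups 8 and 9, beside -0.10 for all tested genes.

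The last Hox genes, which turn on late in the tail, were low or under the filter from group 11 on. In groups 10 to 13, 7 of 12 genes were tested and 7 were higher, with a median of 1.46 over the 12 in the table. Hoxc10 was at 0.0558 and 0.0547 against 22.8 and 31.2 TPM, and Hoxa10 at 0.0652 and 0.0319 against 14.2 and 14.1 TPM. Hoxa13 and Hoxd13, genes of the tail tip and later the digits, were already above the floor at 2.34 and 2.42 TPM and at 5.36 and 4.5 TPM in posterior libraries. Hoxd11 (0.702 and 1.44 TPM), Hoxb13 (0.122 and 0.0645 TPM) and Hoxc13 (0.218 and 0.144 TPM) stayed under the filter, and Hoxc12 and Hoxd12 were listed at 0 in both posterior libraries.

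Cdx genes, homeobox genes of the tail end that act upstream of trunk Hox genes, were among the largest differences. Cdx2 (chromosome 5, 147300805 to 147307270, minus strand) was at 0.802 and 0.877 TPM in the anterior and at 254 and 219 TPM in the posterior libraries (7.01 ± 0.12, adjusted p = 1.2e-09). The X-linked Cdx4 was at 0.869 and 0.532 against 332 and 232 TPM (7.36 ± 0.17). Cdx1 was higher in front than the other two, at 6.52 and 8.83 TPM, and reached 89.1 and 75.8 TPM behind (3.27 ± 0.14). None of the 3 genes overlapped between regions.

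Genes of the tail bud and axial progenitors, the cell pool that feeds spinal cord and mesoderm, were called higher in 13 of 16 tested members and lower in 1, with a median of 1.09; 2 members reached the filter only through the posterior libraries. T (brachyury), the T-box factor of the primitive streak and notochord, was at 6.31 and 5.63 TPM against 118 and 113 TPM (4.06 ± 0.11, adjusted p = 1e-08). Nkx1-2, a marker of bipotent progenitors, was at 1.18 and 1.89 against 82.1 and 62.6 TPM (4.86 ± 0.17), and Evx1, a streak gene, at 0.889 and 1.56 against 57.9 and 50.9 TPM (4.65 ± 0.16). The signals of the same region differed less. Wnt3a was at 22.5 and 22.9 against 37 and 34.3 TPM (0.63 ± 0.10), and Fgf8, which the tail bud shares with the midbrain boundary and the face, was at 55.4 and 64.6 against 47.5 and 55 TPM (-0.22 ± 0.12, adjusted p = 0.19). Sp5, a Wnt target, did not pass either, at 53.9 and 61.1 against 46.5 and 52.4 TPM. The member called lower was Lin28a, an RNA-binding protein of early embryonic cells, at 1154 and 1226 against 952 and 905 TPM (-0.36 ± 0.09, adjusted p = 0.018). That call was lost with median-of-ratios scaling, as were some other calls, given below.

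The presomitic mesoderm, the tissue that is cut into somites by an oscillating clock, gave 12 higher and 2 lower calls in 14 tested members, with a median of 2.03; 5 members reached the filter only through the posterior libraries. Msgn1 (chromosome 12, 11208360 to 11208972, minus strand), a bHLH factor of this tissue, had 0 and 2 reads in the anterior libraries and stood at 110 and 85.7 TPM in the posterior ones (6.41 ± 0.18, adjusted p = 1.1e-08). Tbx6, which keeps these cells mesodermal, was at 1.06 and 0.521 against 40 and 39.9 TPM (4.53 ± 0.17). The clock gene Hes7 was at 0.236 and 0.288 against 17.2 and 21.6 TPM (4.01 ± 0.17). Not all clock components followed: Lfng, a glycosyltransferase of Notch signalling also used in the brain, was lower behind, at 97.8 and 89.7 against 49.3 and 54.7 TPM (-0.84 ± 0.10, adjusted p = 0.00022). The other member called lower was the Wnt inhibitor Dkk1, at 30.5 and 42.4 against 27.2 and 19.5 TPM (-0.62 ± 0.18, adjusted p = 0.033). Mesp1 and Mesp2, which mark the next somite to form, were low even in posterior pieces, at 1.69 and 2.57 TPM and at 4.01 and 5.38 TPM.

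Somite genes were higher in 11 and lower in 2 of 16 tested members, with a median of 1.40; 2 reached the filter only through the posterior libraries. Meox1 (chromosome 11, 101877510 to 101894374, minus strand), a homeobox gene of somites, was at 3.83 and 3 against 246 and 180 TPM (5.59 ± 0.16, adjusted p = 1.2e-08). Tcf15, a bHLH factor needed for epithelial somites, was at 2.28 and 3.41 against 71.9 and 60.1 TPM (4.13 ± 0.16). The muscle factor Myf5 had just appeared, at 3.29 and 2.8 TPM behind and at 0.665 and 0.451 TPM in front. Foxc1, expressed in head mesenchyme as well, did not pass (18.5 and 20.3 against 21.6 and 21.1 TPM, adjusted p = 0.43), while its paralogue Foxc2 did (27.1 and 22.6 against 68.8 and 71.9 TPM, 1.47 ± 0.11). The 2 members called lower, Pax3 and Foxd2, are also expressed in the dorsal neural tube or the face.

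Lateral plate and limb field genes, of the body wall and limb buds, were higher in 15 and lower in 1 of 20 tested members, with a median of 1.02; 3 reached the filter only through the posterior libraries. Foxf1, a forkhead factor of gut mesoderm, was at 2.16 and 2.25 against 122 and 109 TPM (5.18 ± 0.12, adjusted p = 4.5e-09), with groups far apart. Hand1 was at 7.74 and 11.1 against 138 and 127 TPM (3.70 ± 0.15). The forelimb gene Tbx5 was at 0.228 and 0.335 against 9.2 and 8.82 TPM, and the hindlimb gene Tbx4 at 0.188 and 0.338 against 9.01 and 8.11 TPM. Both limb genes thus reached about the same level per length in these pieces. Pitx1, a hindlimb gene that is also active in arch 1, was at 18.6 and 22.5 against 49.2 and 43.6 TPM (1.14 ± 0.12). Gli3, which the brain and face also use, was the member called lower (98.9 and 103 against 58.5 and 58.6 TPM, -0.78 ± 0.09).

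Intermediate mesoderm, the source of the kidney, gave a mixed result with 7 higher and 6 lower of 16 tested members and a median of 0.16; 3 reached the filter only through the posterior libraries. Osr1, the earliest of these factors, was at 2.12 and 1.11 against 50.2 and 49.7 TPM (4.31 ± 0.18), Lhx1 at 0.34 and 0.384 against 17.7 and 13.7 TPM (3.61 ± 0.17), and the receptor Ret at 5.56 and 3.66 against 26.8 and 25 TPM (2.28 ± 0.17). The members called lower, Pax2, Pax8, Emx2, Eya1, Six2 and Wnt9b, are genes that brain, ear, eye or face also express. Pax2, for example, was at 15.4 and 17 against 6.93 and 4.69 TPM (-1.35 ± 0.17, adjusted p = 0.00027). The lower calls were 2 without posterior library 156 and 3 without posterior library 153.

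Pharyngeal and gut endoderm genes were higher in 10 and lower in 2 of 18 tested members, with a median of 0.69; 2 reached the filter only through the posterior and 1 only through the anterior libraries. Among the members called higher, Gata4, which is also in the heart list, was at 1.99 and 0.909 against 47.5 and 58.1 TPM (4.49 ± 0.20, adjusted p = 2.2e-07). Gata6 was at 4.13 and 1.99 against 28.2 and 30.3 TPM (2.95 ± 0.22). Hnf4a, a nuclear receptor of gut and yolk sac endoderm, was at 1.68 and 0.195 against 26.2 and 25.2 TPM (3.90 ± 0.30). The part of heart and yolk sac tissue in these differences was not tested. The 2 members called lower were the thyroid and forebrain gene Nkx2-1 (5.78 and 5.1 against 0 and 0.576 TPM) and Foxe1 of the oral roof and thyroid (6.54 and 2.94 against 0.383 and 2.03 TPM, adjusted p = 0.023). Shh and Foxa2, genes of gut and floor plate, did not pass. Shh was at 27.8 and 31.1 against 27.3 and 32.6 TPM (0.02 ± 0.12, adjusted p = 0.92), and Foxa2 at 23.4 and 22.4 against 19.7 and 25.1 TPM. The endoderm genes Foxa1 (0.61, adjusted p = 0.0045) and Sox17 (0.69, adjusted p = 0.017) were called higher. The counts were 6 higher and 1 lower without posterior library 156, and without anterior library 156 they were 10 and 4. Hhex, an early liver and thyroid gene, was at 6.14 and 4.77 against 9.57 and 10.6 TPM (0.79 ± 0.15).

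Visceral endoderm genes, mostly serum and transport proteins of the yolk sac, were higher in posterior pieces in 15 of 15 tested members, and each of the 15 reached the filter in both regions, with a median of 3.94 over the list. Apoa1, an apolipoprotein, was at 39.8 and 5.07 against 724 and 621 TPM (5.41 ± 0.63, adjusted p = 0.00018). Afp, alpha-fetoprotein, was at 21.7 and 1.3 against 396 and 266 TPM (5.49 ± 0.76), and Ttr, transthyretin, at 32.2 and 3.17 against 618 and 521 TPM (5.60 ± 0.68). Anterior library 153 was above 156 in each of the 15 members, and the summed level of the list was 180 and 31 TPM in the anterior and 2787 and 2322 TPM in the posterior libraries. The defining liver gene Alb was at 0 in 3 of the libraries and at 0.0304 TPM in posterior library 156. With posterior library 153 or 156 left out, 10 and 7 members were called. Outside the list, and named after their values were seen, Apom (14.2 and 2.37 against 269 and 214 TPM), the gut claudin Cldn2 (2.37 and 0.753 against 30.5 and 28.5 TPM) and the hedgehog ligand Ihh (1.12 and 0.308 against 14.5 and 17.4 TPM) were higher behind as well. How much yolk sac was left on either piece was not tested.

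Heart genes were higher in 15 and lower in 1 of 19 tested members, with a median of 2.04; 3 reached the filter only through the posterior libraries. Myl7, the atrial light chain and a defining gene of the early heart tube, was at 75.3 and 8.67 TPM in the anterior and at 233 and 707 TPM in the posterior libraries (3.91 ± 0.77, adjusted p = 0.005). Cardiac actin Actc1 was at 52 and 21.2 against 213 and 661 TPM (3.45 ± 0.47), and Myh6, atrial myosin, at 0.808 and 0.512 against 13.4 and 36.7 TPM (3.82 ± 0.35). Posterior library 156 was above 153 in 17 of the 19, and anterior library 153 above 156 in 17 of the 19. The summed level of the list was 235 and 83.7 TPM in front and 805 and 2003 TPM behind. The regulator Nkx2-5 (19.6 and 7.71 against 8.05 and 30.6 TPM, adjusted p = 0.67) and the ventricular myosin Myh7 (8.59 and 2.47 against 1.34 and 22.7 TPM, adjusted p = 0.78) overlapped between regions. Mef2c, a heart and crest factor, was the member called lower (12.4 and 9.87 against 5.32 and 7.69 TPM). Without posterior library 156 only 6 members were called higher and 0 lower, without posterior library 153 the counts were 11 and 0, and with median-of-ratios scaling 10 and 0. Myl7 had an adjusted p of 0.21 without posterior library 156. The transcription factors Tbx5 (2.97 ± 0.17) and Tbx20 (2.40 ± 0.21) had smaller standard errors than Myl7.

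**Figure D3:**
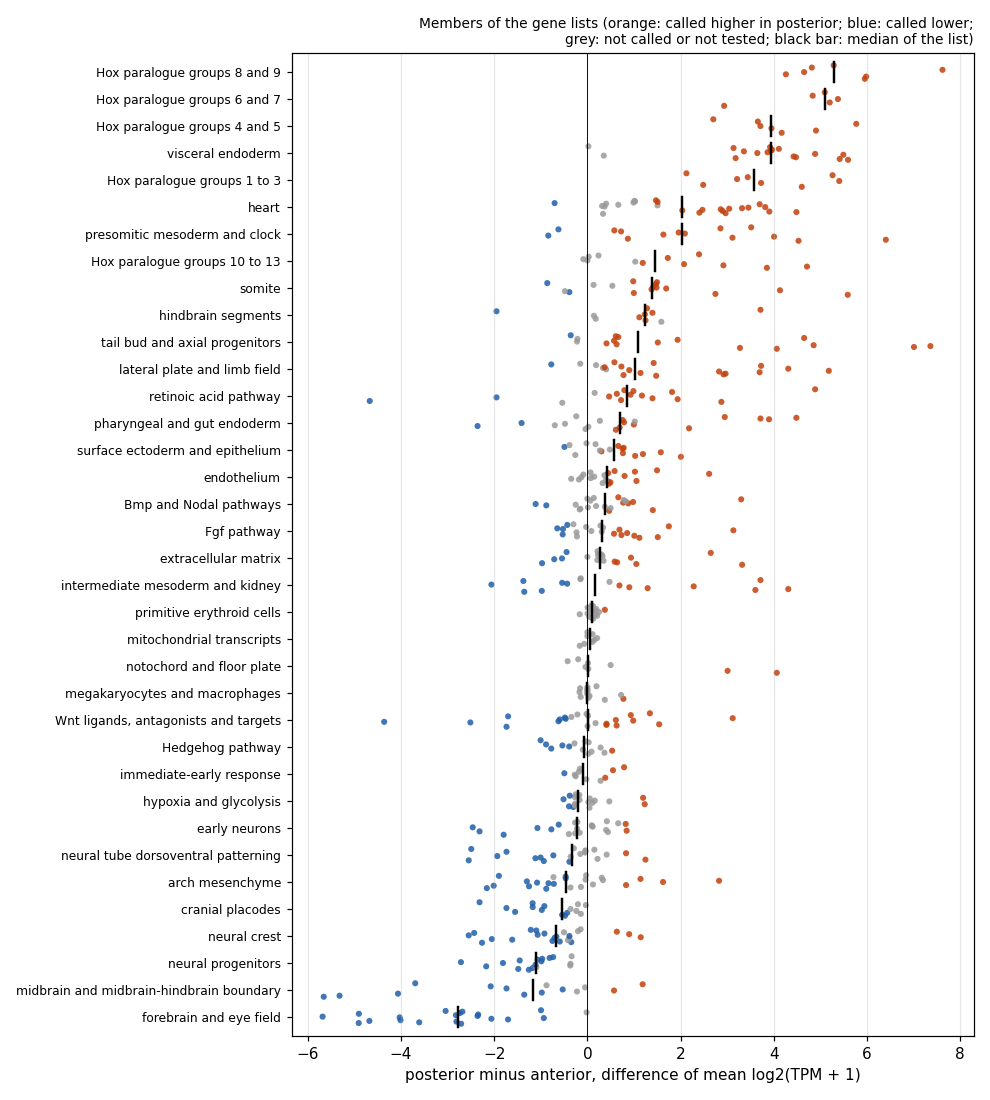
Difference of mean log2(TPM + 1), posterior minus anterior (x axis), of the members of 36 gene lists (y axis, ordered by the median of the members in the table), 1 point per gene. Orange points were called higher, blue points lower, grey points were not called or not tested, and black bars are medians; Hox, visceral endoderm and heart lists lie to the right, and forebrain, midbrain and neural progenitor lists to the left.

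Forebrain and eye genes were lower behind in each of the 19 tested members of 20, with a median of -2.77. Of these, 9 reached the filter only through the anterior libraries and 10 in both regions. Six3 (chromosome 17, 85613608 to 85629302, plus strand), which represses Wnt signals in the front of the brain, was at 33.5 and 32.6 against 0.0987 and 0.17 TPM (-4.91 ± 0.15, adjusted p = 1.4e-08). Lhx2, needed for the eye and cortex, was at 62.7 and 78.2 against 1.53 and 2.04 TPM (-4.68 ± 0.15), and the forebrain factor Fezf1 at 32.6 and 38.4 against 0.223 and 0.207 TPM (-4.90 ± 0.15). Genes that the spinal cord also uses differed least. Pax6 was at 24.5 and 23.6 against 12.3 and 11.9 TPM (-0.94 ± 0.11), and Sp8 at 40.8 and 51.9 against 24.3 and 21 TPM (adjusted p = 0.00047).

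Midbrain and boundary genes were lower in 9 and higher in 2 of 13 tested members, with a median of -1.17; 3 reached the filter only through the anterior libraries. En2 (51.1 and 68.9 against 0.342 and 0.703 TPM, -5.32 ± 0.18) and Pax5 (34.4 and 41.4 against 1.31 and 1.32 TPM, -4.07 ± 0.14, adjusted p = 3.6e-08) joined En1 at the low end. The boundary signal Wnt1, which the whole dorsal neural tube also makes, was at 40.3 and 46.1 against 11.1 and 13.5 TPM (-1.74 ± 0.13). Gbx2, which is made on the hindbrain side of the boundary and in the tail, was higher behind, at 15.1 and 12.3 against 34.3 and 30.4 TPM (1.19 ± 0.13, adjusted p = 0.00011), as was Fgf17, at 36.6 and 39.9 against 63.7 and 51.5 TPM (0.57 ± 0.12). Fgf8 and the roof plate gene Lmx1a (12.1 and 13.1 against 12.5 and 11.8 TPM, adjusted p = 0.78) did not pass.

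Hindbrain segment genes, which lie nearest to the cut, gave 6 higher and 1 lower of 10 tested, with a median of 1.24, and 1 reached the filter only through the posterior libraries. Fgf3, the signal made beside the ear, was at 14.5 and 13.1 against 31.4 and 30.7 TPM (1.12 ± 0.11). Egr2, the defining gene of alternate segments, did not pass (1.59 ± 0.60, adjusted p = 0.087): posterior libraries were at 7.71 and 9.92 TPM, anterior library 153 at 6.87 TPM from 219 reads and anterior library 156 at 0.338 TPM from 11 reads. Its difference was 2.87 without anterior library 153 and 0.31 without anterior library 156. Cyp26c1, a retinoic acid hydroxylase of the front hindbrain and head mesenchyme, was the member called lower, at 157 and 87.3 against 23.2 and 37.6 TPM (-1.95 ± 0.26, adjusted p = 0.00045), and without posterior library 153 its adjusted p was 0.057. Anterior library 153 was above 156 in 9 of the 10 genes. Without posterior library 153 the counts were 4 higher and 0 lower, and without posterior library 156 they were 3 and 1.

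Neural crest genes, of the migratory cells that build the face and peripheral nerves, were lower in 15 and higher in 3 of 23 tested, with a median of -0.67, and every member reached the filter in both regions. Sox10, the crest and glial factor, was at 104 and 120 against 20.5 and 24.7 TPM (-2.26 ± 0.12, adjusted p = 7.1e-07). Pax7 was at 22.1 and 23.3 against 3.28 and 2.84 TPM (-2.55 ± 0.13), and Tfap2b at 29.8 and 29.1 against 6.13 and 6.58 TPM (-2.05 ± 0.12). The crest genes moved unequally. Sox9, also a gene of cartilage and ear, differed by only -0.35 ± 0.10, and Foxd3, which marks crest as it leaves the neural tube, did not pass (20 and 20.7 against 12.8 and 17.5 TPM, adjusted p = 0.068). The members called higher were Snai2 (15.1 and 14.7 against 40.6 and 28.7 TPM, 1.14 ± 0.15), the endothelin receptor Ednrb (13.6 and 11.4 against 23.8 and 24.3 TPM, 0.89 ± 0.12) and Crabp1 (2046 and 1472 against 2725 and 2656 TPM, 0.63 ± 0.14). Its relative Snai1 went the other way, at 115 and 143 against 73.3 and 83.7 TPM (-0.71 ± 0.12, adjusted p = 0.0022).

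Arch mesenchyme genes were lower in 11 and higher in 4 of 21 tested, with a median of -0.47, and 1 reached the filter only through the anterior libraries. Dlx genes pattern the arches: Dlx2 was at 32 and 36.7 against 6.12 and 7.77 TPM (-2.16 ± 0.14), and the lower-jaw genes Dlx5 at 23.5 and 26.7 against 10.1 and 9.77 TPM (-1.25 ± 0.12) and Dlx6 at 6.82 and 9.36 against 1.3 and 1.17 TPM (-2.01 ± 0.18). Endothelin 1 (Edn1), the signal for lower-jaw identity, was at 17.9 and 16.4 against 2.7 and 5.39 TPM (-1.90 ± 0.22, adjusted p = 0.00018). Hand2, which acts at the tip of the arches and also in heart and limb, was higher behind, at 8.57 and 3.55 against 45.8 and 45.8 TPM (2.83 ± 0.27). The upper-face genes Alx1 and Alx4 were both lower, by 0.72 to 1.08 in size, and the shared mesenchyme gene Prrx2 did not pass (102 and 89.2 against 93.6 and 92 TPM, adjusted p = 0.8). Without posterior library 156 the counts were 3 higher and 5 lower, without posterior library 153 they were 3 and 6, without anterior library 156 they were 4 and 6, and with median-of-ratios scaling 4 and 7.

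Cranial placodes, the ectodermal thickenings that give rise to ear, lens and cranial ganglia, had 10 lower and 0 higher of 13 tested, with a median of -0.54, and 1 reached the filter only through the anterior libraries. Neurog1, the proneural factor of cranial sensory neurons, was at 15.6 and 14.4 against 1.67 and 2.87 TPM (-2.31 ± 0.18, adjusted p = 1.3e-05). Eya2 was at 44.7 and 49.2 against 15.7 and 15 TPM (-1.55 ± 0.11), and Foxi2, of the surface ectoderm of the head, at 48.7 and 44.9 against 9.86 and 17.9 TPM (-1.74 ± 0.21). The general placode gene Eya1 differed by -0.43 ± 0.13, and Six4 did not pass (14.2 and 13.5 against 13.5 and 11.5 TPM, adjusted p = 0.46). With posterior library 153 or posterior library 156 left out, 5 members were called.

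Neural progenitor genes were lower in 13 of 16 tested members and higher in 0, with a median of -1.09, and every one reached the filter in both regions. Sox2, which keeps neural cells as progenitors, was at 327 and 328 against 115 and 118 TPM (-1.48 ± 0.08, adjusted p = 1.2e-06). Pou3f1 was at 39.3 and 40 against 4.57 and 5.89 TPM (-2.71 ± 0.13), and Sox21 at 54.7 and 59.6 against 11.6 and 12.2 TPM (-2.17 ± 0.11). The members that did not pass were Nes, the intermediate filament nestin (97.8 and 75.4 against 62.4 and 70.5 TPM), the Notch target Hes5 (39.9 and 34 against 23 and 35.1 TPM) and the endocytic receptor Lrp2 (26.9 and 18.7 against 18.2 and 16.9 TPM). How much of each piece was neural tissue was not tested.

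Genes that pattern the neural tube from back to belly were lower in 9 and higher in 2 of 17 tested, with a median of -0.32. The motor neuron progenitor gene Olig2 was higher behind, at 4.89 and 5.16 against 13.9 and 12.7 TPM (1.25 ± 0.13, adjusted p = 9.8e-05). Ventral genes with strong head expression were lower: Nkx6-2 was at 38.6 and 31.8 against 7.26 and 9.77 TPM (-1.94 ± 0.15), Nkx2-9 at 83.2 and 70.1 against 32.6 and 43.3 TPM (adjusted p = 0.00061), and Nkx2-2 at 3.08 and 2.98 against 0.655 and 1.09 TPM (-1.12 ± 0.20). Nkx6-1, expressed along the whole ventral tube, did not pass (28.3 and 26.1 against 18.3 and 24 TPM, adjusted p = 0.089). The other member called higher was Msx1 (0.83, adjusted p = 0.00038). The proneural factor Neurog2, a member of the early neuron list and not of this one, was higher behind. It was at 6.32 and 5.53 against 11.1 and 11.7 TPM (0.84 ± 0.14, adjusted p = 0.0015).

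Early neuron genes gave 6 lower and 2 higher of 16 tested, with a median of -0.21 and summed levels of 229 and 250 TPM in the anterior and 105 and 111 TPM in the posterior libraries; 2 reached the filter only through the posterior libraries. Tubb3, the neuronal tubulin, was at 108 and 117 against 32.3 and 31 TPM (-1.80 ± 0.10, adjusted p = 7.4e-07), Ina, an early neurofilament, at 27 and 49.6 against 5.14 and 6.61 TPM (-2.46 ± 0.23), and Stmn2 at 21.4 and 19 against 8.78 and 9.37 TPM (-1.07 ± 0.12). Neurod1, Neurod4 and Dcx stayed under the filter, at no more than 0.85 TPM in any of the 4 libraries. The neurofilament Nefl did not pass, at 12 and 10.1 against 12.7 and 11 TPM (0.10 ± 0.14, adjusted p = 0.64). The counts were 0 higher and 4 lower without posterior library 156, 1 and 4 without posterior library 153, 1 and 5 without anterior library 156 and 3 and 5 without anterior library 153.

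**Figure D4:**
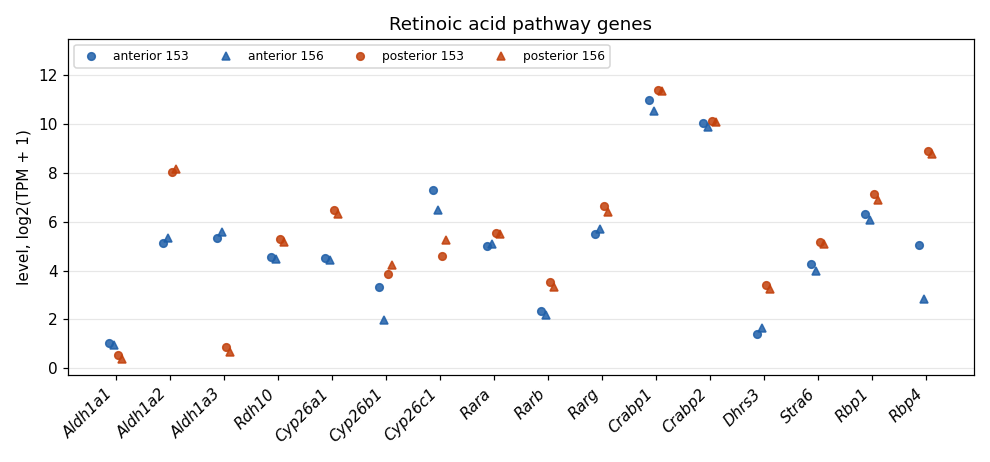
Levels as log2(TPM + 1) on the y axis of the 16 retinoic acid pathway genes along the x axis, 1 point per wild-type library (blue anterior, orange posterior). Aldh1a2 and Aldh1a3 separate the regions in opposite directions, and the anterior libraries differ from each other in Rbp4 and Cyp26b1.

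Retinoic acid pathway genes, from synthesis to breakdown, were higher in 12 and lower in 2 of 15 tested members, with a median of 0.86. Of the synthetic enzymes, Aldh1a2 (chromosome 9, 71215789 to 71296243, plus strand), the enzyme of trunk mesoderm, was at 34.2 and 38.8 against 266 and 282 TPM (2.88 ± 0.10, adjusted p = 3.1e-08), a ratio of means of 7.5. Aldh1a3, the enzyme of the eye and nose region, was at 39 and 46.9 against 0.844 and 0.601 TPM (-4.67 ± 0.15, adjusted p = 2e-08) and reached the filter only through the anterior libraries. The enzyme of the step before, Rdh10, was at 22.2 and 21.2 against 38.5 and 34.5 TPM (0.72 ± 0.11). Of the degrading enzymes, Cyp26a1 of the tail bud was higher, at 22 and 20.4 against 88.3 and 79.8 TPM (1.94 ± 0.10). Cyp26b1 was higher too, at 8.88 and 2.91 against 13.4 and 17.6 TPM (1.40 ± 0.34, adjusted p = 0.015), a call that median-of-ratios scaling ended (adjusted p = 0.072). Cyp26c1, given above, went the other way.

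Receptors and targets of retinoic acid were higher behind by smaller amounts. The receptors Rara (31.4 and 33.4 against 45.5 and 44.8 TPM, 0.47 ± 0.10), Rarb (4.05 and 3.51 against 10.4 and 9.13 TPM, 1.17 ± 0.15) and Rarg (43.9 and 51 against 99.7 and 82.7 TPM, 0.93 ± 0.12) were all called. Dhrs3, an enzyme induced by retinoic acid that reverses the step of Rdh10, was at 1.6 and 2.14 against 9.69 and 8.48 TPM (1.82 ± 0.17, adjusted p = 3.5e-05). The uptake receptor Stra6 was at 18.1 and 15 against 34.5 and 32.9 TPM (0.99 ± 0.12). Rbp4, the plasma carrier of retinol made by yolk sac endoderm, was at 31.9 and 6.22 against 479 and 433 TPM (4.89 ± 0.50), and its anterior libraries stood apart as those of the visceral endoderm genes did. Crabp2, the binding protein that carries retinoic acid to the nucleus, did not pass, at 1060 and 942 against 1136 and 1092 TPM (0.16 ± 0.09, adjusted p = 0.26).

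Of the Fgf pathway, 9 members were higher and 4 lower of 21 tested, with a median of 0.31; 1 reached the filter only through the posterior libraries. Among ligands, Fgf4 of the streak was at 1.2 and 0.327 against 3.91 and 3.83 TPM (1.51 ± 0.25) and Fgf18 at 13.5 and 19.7 against 34 and 27 TPM (0.86 ± 0.17). Among receptors, Fgfr4, expressed in endoderm and early muscle, was at 0.632 and 0.354 against 11.8 and 12.3 TPM (3.13 ± 0.17), and the broadly expressed Fgfr1 did not pass (87.3 and 94.5 against 79.7 and 74.6 TPM, adjusted p = 0.11). Response genes split. The transcription factor Etv4 was higher (24.5 and 14.6 against 75.9 and 57.4 TPM, 1.75 ± 0.21), the feedback inhibitors Spry1 and Spry2 were lower (-0.52 ± 0.10 and -0.65 ± 0.09), and the phosphatase Dusp6 did not pass (116 and 115 against 117 and 110 TPM, adjusted p = 0.86). Without posterior library 153 the counts were 5 and 5, without anterior library 153 they were 8 and 2, and without anterior library 156 they were 9 and 2.

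Wnt genes were nearly balanced, with 9 higher and 8 lower of 23 tested and a median of 0; 1 reached the filter only through the anterior libraries. The ligands Wnt8b (24.4 and 31 against 0.309 and 0.47 TPM, -4.36 ± 0.17) and Wnt7b (38.1 and 39 against 6.48 and 5.43 TPM, -2.51 ± 0.12) of the brain were lower. Wnt5a, a ligand of outgrowing tissue such as the tail and limb, was higher (21.4 and 19.8 against 64.3 and 59.4 TPM, 1.54 ± 0.10). Of the secreted antagonists, Sfrp5, of the foregut endoderm, was higher (10.9 and 7.96 against 84.5 and 93.1 TPM, 3.12 ± 0.14) and Sfrp1 (279 and 226 against 175 and 158 TPM), Sfrp2 and Frzb were lower by 0.47 to 0.59. The target Axin2, a general readout of Wnt signalling, was at 69.8 and 74.8 against 77.8 and 68.5 TPM (0.01 ± 0.10, adjusted p = 0.93), while Lef1 was higher at 16 and 17.8 against 37.9 and 28.9 TPM (0.93 ± 0.14) and Notum at 4.87 and 5.42 against 16.8 and 12.6 TPM (1.34 ± 0.16). The targets Nkd1 (66.4 and 79.8 against 74.2 and 69.6 TPM, adjusted p = 0.92) and Sp5, given above, did not pass, so that 2 of these 5 targets were called. Without posterior library 153 the counts were 5 higher and 7 lower, without anterior library 153 and without posterior library 156 they were 7 and 5, and without anterior library 156 they were 6 and 6.

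Bmp and Nodal pathway members were higher in 7 and lower in 2 of 16 tested, with a median of 0.37; 2 reached the filter only through the posterior libraries. The ligand Bmp4 was at 20.8 and 24.5 against 59.3 and 63.6 TPM (1.41 ± 0.11, adjusted p = 1.3e-05), and the Bmp-induced inhibitors Smad6 and Bambi were higher by 0.88 ± 0.13 and 0.98 ± 0.11. The Bmp targets Id1 (467 and 523 against 239 and 300 TPM, -0.88 ± 0.12) and Id3 (882 and 1075 against 429 and 473 TPM, -1.11 ± 0.11) went the other way. Cer1, a Nodal and Bmp antagonist of forming somites, was at 0.552 and 0.54 against 13.9 and 14.6 TPM (3.30 ± 0.16). Nodal itself stayed under the filter at 0.577 and 1.19 TPM behind, and the antagonist Nog did not pass (18.5 and 17.5 against 18.2 and 18.1 TPM, adjusted p = 0.96).

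Hedgehog pathway members gave 1 higher and 5 lower of 14 tested, with a median of -0.07. Of the pathway targets, Ptch1 did not pass (69.8 and 51.7 against 79.7 and 75.9 TPM, 0.37 ± 0.13, adjusted p = 0.075), and Gli1 was the member called higher (22.9 and 18.1 against 31 and 28.8 TPM, 0.53 ± 0.13, adjusted p = 0.015). The co-receptors Cdon (81.5 and 75.7 against 43.8 and 40.3 TPM, -0.89 ± 0.10) and Boc (-0.54 ± 0.13) were lower behind, as were Gli3 and Smo (245 and 252 against 185 and 194 TPM, -0.39 ± 0.09). The counts were 2 higher and 4 lower without anterior library 153, 0 and 3 without anterior library 156, 0 and 5 without posterior library 153 and 0 and 4 without posterior library 156.

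Notochord and floor plate genes gave 2 higher and 0 lower of 8 tested, with a median of 0.02; 2 reached the filter only through the posterior libraries. The called genes were T, given above, and Noto, a gene of the node (0.266 and 0.13 against 6.54 and 11.3 TPM, 3.01 ± 0.24). The other 6 members, among them Ntn1 (67.9 and 61.2 against 58.4 and 53.9 TPM, adjusted p = 0.19), did not pass.

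Surface ectoderm and epithelial genes were higher in 9 and lower in 1 of 16 tested, with a median of 0.57; 1 reached the filter only through the posterior libraries. The simple-epithelium keratins Krt8 (164 and 135 against 311 and 297 TPM, 1.02 ± 0.11), Krt18 (339 and 307 against 544 and 552 TPM, 0.76 ± 0.09) and Krt19 (33.1 and 25.1 against 93.9 and 82.3 TPM, 1.57 ± 0.13) rose with Krt5 of the future epidermis (0.825 and 0.95 against 7.22 and 5.99 TPM, 2.01 ± 0.18). Cldn6, a tight junction protein of early epithelia, was at 245 and 231 against 395 and 410 TPM (0.75 ± 0.09). Visceral endoderm genes, which are epithelial too, moved with these genes, from summed levels of 180 and 31 TPM to 2787 and 2322 TPM, and their part was not tested. Epcam did not pass, at 104 and 104 against 123 and 128 TPM (adjusted p = 0.051), and Grhl2 was lower (-0.49 ± 0.13).

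Extracellular matrix genes gave 6 higher and 4 lower of 18 tested, with a median of 0.28. Col1a1, the main fibrillar collagen of mesenchyme, was at 10.5 and 8.14 against 101 and 102 TPM (3.32 ± 0.13, adjusted p = 6.1e-08), and the heart cushion and mesenchyme protein Postn at 4.28 and 3.47 against 30.1 and 28.8 TPM (2.65 ± 0.13). Col2a1, the collagen of cartilage precursors and notochord, was lower, at 100 and 85.4 against 40.8 and 53.2 TPM (-0.97 ± 0.13). The laminins Lama1, Lamb1 and Lamc1 and the matrix protein Sparc did not pass. Without posterior library 156 the counts were 3 higher and 1 lower, without posterior library 153 they were 4 and 1, without anterior library 153 they were 7 and 2, and without anterior library 156 they were 4 and 3. With median-of-ratios scaling the counts were 8 higher and 1 lower.

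Primitive erythroid genes, which mark the red cells in the circulation, gave 1 higher and 0 lower of 19 tested, with a median of 0.10. Embryonic globin Hbb-y was at 1014 and 2755 TPM in the anterior and at 1563 and 2122 TPM in the posterior libraries (0.12 ± 0.35, adjusted p = 0.83), so that the posterior values lay between the anterior ones. Overlap of this kind was seen in 18 of the 19 members, and the exception was Tal1, which endothelial precursors also express (20.4 and 20.4 against 27 and 26.5 TPM, 0.37 ± 0.11, adjusted p = 0.03). Anterior library 156 was above 153 in 18 of the 19. Without anterior library 153, 4 members were called lower, and without anterior library 156, 8 were called higher. The adult-type alpha globins Hba-a1 and Hba-a2 differ so little in sequence that the split of reads between them is uncertain.

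Mitochondrial transcripts, a common sign of RNA quality and cell content, were called in 0 of 6 tested members by limma, and 0 had an unadjusted p under 0.05. Their summed level was 30817 and 16216 TPM in the anterior and 22890 and 22151 TPM in the posterior libraries. Anterior library 153 was above 156 in each of the 6, the opposite order to the globins. Without anterior library 153, 4 members were called higher, and without anterior library 156, 5 were called lower.

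Endothelial genes were higher in 10 and lower in 0 of 20 tested, with a median of 0.42. The largest differences were in Lyve1, of endothelium and macrophages (1.61 and 0.107 against 6.26 and 13.9 TPM, 2.61 ± 0.40), and the arterial connexin Gja4 (10.8 and 11 against 28.9 and 36.6 TPM, adjusted p = 2.7e-05). The angiopoietin receptor Tek was at 24 and 16.3 against 44.3 and 40.1 TPM (1.06 ± 0.16). General markers did not pass or passed narrowly: Cdh5 was at 72.5 and 60.4 against 79 and 87.9 TPM (adjusted p = 0.064), and Pecam1 at 12.9 and 10.9 against 17.1 and 16.3 TPM (0.46 ± 0.13, adjusted p = 0.027). Without posterior library 153 only 3 members were called, without posterior library 156 only 2, and without anterior library 156 6. Of 15 genes of megakaryocytes and macrophages only 2 were tested; C1qa, C1qb, C1qc, Ptprc and Cx3cr1 were listed at 0 in all 4 libraries.

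Hypoxia and glycolysis genes and immediate-early genes, which respond to handling, were called in 6 of 19 and 4 of 9 tested members, beside 22.4% of all tested genes. Of the 19 hypoxia and glycolysis genes 2 were higher and 4 lower, with a median of -0.19; Ldha was at 3677 and 3761 against 3140 and 2898 TPM (-0.30 ± 0.10, adjusted p = 0.049) and Slc2a1 at 905 and 937 against 955 and 945 TPM (adjusted p = 0.74). With median-of-ratios scaling 1 was higher and 1 lower, and the counts were 3 and 0 without anterior library 156, 2 and 1 without anterior library 153, 1 and 2 without posterior library 153 and 1 and 1 without posterior library 156. Of 9 tested immediate-early genes 3 were higher and 1 lower, or 1 and 0 without anterior library 156 and 1 and 1 without posterior library 156, and Fos was at most 1.09 TPM in any of the 4 libraries. Nr6a1, the gene that encodes Gcnf, was at 194 and 205 TPM in front and at 157 and 165 TPM behind (-0.30 ± 0.09, adjusted p = 0.034), and with median-of-ratios scaling this difference did not pass (-0.19, adjusted p = 0.17).

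**Figure D5:**
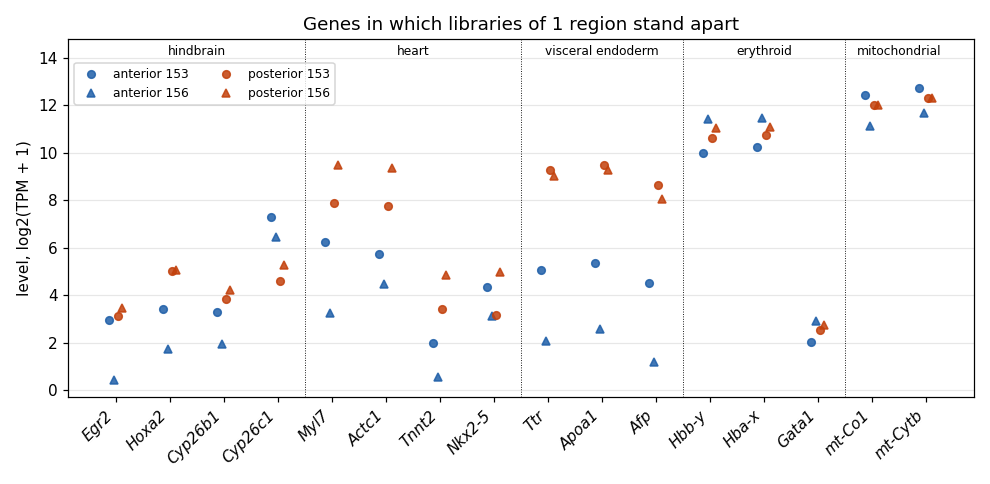
Levels as log2(TPM + 1) on the y axis of genes in which libraries of a region stand apart, along the x axis by tissue, 1 point per wild-type library (blue anterior, orange posterior; circles 153, triangles 156). Anterior 153 lies above anterior 156 in the hindbrain, heart, visceral endoderm and mitochondrial genes and below it in the erythroid genes.

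Several gene groups thus separated the libraries of a region as well as the regions. Anterior library 153 was above anterior library 156 in Egr2, Hoxa2, Myl7 and Ttr, examples of genes found at or behind the cut. Posterior library 156 carried more heart RNA than posterior library 153. Hox genes of groups 4 to 13, by contrast, were near 0 in both anterior libraries, with summed levels of at most 1.45 TPM in any of the 4 lists. The lists did not share 1 order. Anterior library 153 was above 156 in 5 tail bud, 6 presomitic, 10 lateral plate and 11 somite members. It was below in 11, 7, 10 and 5. It was also above in 17 endothelial and 17 extracellular matrix members, and below in 3 and 1. The part of the position of the cut in these library differences was not tested. With any 1 library left out, the higher calls were 11 to 12 in the tail bud list, 10 to 12 in the presomitic list, 10 to 11 in the somite list and 12 to 15 in the lateral plate list, and the lower calls were 18 to 19 in the forebrain list and 8 to 9 in the midbrain list.

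Calls of some genes named above were lost when 1 library was left out, with the lone library of that region assumed to vary like those of the other. In the fits without anterior library 153 or 156, the spread of every gene was set from genes of similar level, not from its own libraries. Large differences passed readily in those fits. Without posterior library 156 the adjusted p was 0.05 to 0.31 for Ttr, Afp, Apoa1, Rbp4, Apom, Hoxa2, Sp8, Pax8, Cyp26b1, Alx1, Hand2, Sox9, Snai1, Pax3, Crabp1, Six2, Eya1, Foxe1, Hhex, Myl7, Actc1, Mef2c, Dkk1, Fgf4, Fgf18, Lin28a, Wnt9b, Sfrp1, Frzb, Gli1, Boc, Neurog2, Grhl2, Tal1, Pecam1, Tek, Lyve1, Ldha, Nr6a1 and Mir6236. Without posterior library 153 it was 0.05 to 0.23 for Ttr, Afp, Apoa1, Hoxa2, Cyp26b1, Cyp26c1, Alx1, Snai1, Pax3, Crabp1, Six2, Eya1, Foxe1, Hhex, Myl7, Mef2c, Dkk1, Fgf4, Fgf18, Wnt9b, Sfrp1, Gli1, Boc, Grhl2, Tal1, Pecam1, Tek, Ldha and Nr6a1. Without anterior library 153 it was 0.061 to 0.32 for Fgf17, Sox9, Pax3, Six2, Eya1, Mef2c, Lin28a, Rara, Sfrp1, Sfrp2, Frzb, Smo, Grhl2, Tal1, Ldha and Nr6a1. Without anterior library 156 it was 0.058 to 0.46 for Alx1, Sox9, Pax3, Crabp1, Eya1, Dkk1, Lin28a, Rara, Spry1, Sfrp2, Gli1, Smo, Boc, Grhl2, Tal1, Pecam1, Ldha and Nr6a1. Foxa1 and Sox17 also lost their call without posterior library 156, with differences of 0.51 and 0.48. The Hox genes apart from Hoxa2, the Cdx genes, T, Otx2, En1, Sox10, Sox2 and Aldh1a2 were among the called genes whose differences passed in each of these fits.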

How the data were processed

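Poly-A RNA of embryo pieces stored in RNAlater and purified on columns was sequenced from TruSeq v2 libraries that do not keep strand, per the labels' protocols. CASAVA 1.8.2, STAR and the mm10 build are named in the submitters' processing notes; the STAR version, annotation and counting program are not known from the sources used here. Expression per Ensembl gene was deposited as TPM by the authors, which sum to 1000000 in each library. Gene names for 55240 of 55421 identifiers, coordinates and exon lengths came from GENCODE M21; with those lengths 98.8% to 98.88% of values gave whole reads within 0.01 read, and these recovered reads were used only for depth and floors.

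Genes with at least 1 TPM in at least 2 of the 4 wild-type libraries were tested on log2(TPM + 1) with limma 3.58.1 in R 4.3.3, with the prior spread allowed to follow the mean level, 2 libraries per region, two-sided, with Benjamini-Hochberg adjustment over all genes tested and a threshold of 0.05. The fit was tested on simulated data. Alternatives were other pseudocounts, filters, scalings, all 8 libraries, a replicate block, no trend and each library left out. The 36 gene lists, 508 genes in all with 1 not in the table, and the rule of naming were written with earlier results of these data known. The rule named the 15 largest differences each way among genes past the threshold that reached 5 TPM on average in their higher region without overlap, leaving out predicted, small RNA, sex-linked and mitochondrial genes, in each list the 4 members of smallest p, up to 2 highly expressed members that did not pass, every Hox gene, Nr6a1, and members of 4 lists whose libraries differed. Other list members were named as examples after their values were seen. Medians of lists are over all their members in the table, tested or not. The planned count of homeodomain genes by protein sequence was not run. Some genes are not reported here.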

Additional observations from a re-analysis of the deposited data

How the results depend on the processing

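With no filter on low values 1288 genes were called, 774 higher and 514 lower in posterior pieces. With all 8 libraries the lower calls were 1196, and with the replicate block on all 8 libraries 1168. Leaving out 1 library gave 1541 to 3215 calls in all, 868 to 1497 higher and 673 to 2176 lower; the total moved most without posterior library 156 (1541) and without anterior library 156 (2259), the higher calls without posterior library 156 (868) and 153 (1039), and the lower calls without posterior library 156 (673), anterior library 153 (924) and anterior library 156 (945). Without anterior library 153 the globin differences reversed, with Hbb-y from 0.12 to -0.60, Hbb-bh1 to -0.45, Hba-x to -0.54 and Hba-a1 to -0.67, and the highest values with another library left out were 0.84, 0.66, 0.68 and 0.74. Without anterior library 156 the mitochondrial differences reversed, with mt-Nd4 to -0.45, mt-Co1 to -0.45 and mt-Cytb to -0.42, and the highest values with another library left out were 0.66, 0.87 and 0.64. The cause was not tested. A block for the replicate number gave 4394 calls; deviations of same-numbered wild-type libraries correlated with r = 0.027 across genes and those of the mutant libraries with r = 0.151, and with 2 pairs in each genotype the numbers were not shown to pair the libraries. Of 368 called genes among the named and listed ones, 145 lost their call with no filter, 115 without posterior library 156, 87 without posterior library 153, 59 without anterior library 156, 40 without anterior library 153, 47 with all 8 libraries and 34 with median-of-ratios scaling. Of the 3464 calls, 2889 were kept with that scaling and 2531 with all 8 libraries. No kept call changed direction under any of the 14 alternatives. Named genes that lost their call with median-of-ratios scaling included Snai1, Sfrp2, Myl7, Alx1, Smo, Boc, Pax3, Mef2c, Dkk1, Foxe1 and Six2. Their adjusted p was 0.052 to 0.15 with that scaling.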

Other observations

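Whole gene families were also counted, taken by symbol after values were seen. Many of their members are in the lists above, so these counts partly repeat the counts of the lists. Of all tested genes, 10.6% were higher and 11.8% lower in posterior pieces. Of the Zic genes, zinc-finger factors of the dorsal neural tube, 4 of 4 tested were lower in posterior pieces. The 4 tested Pou3 genes, factors of neural progenitors, and the 4 tested Emx and En genes were lower as well. Of the Emx and En genes, 2 reached the filter only through the anterior libraries. Of 16 tested Sox genes 10 were lower and 2 higher. T-box genes went the other way, with 8 of 11 tested higher and 1, Tbx15, lower. Of these 11, 2 reached the filter only through the posterior and 1 only through the anterior libraries, which set their direction. Of the Gata genes 4 of 6 were higher and 0 lower, and the endoderm and heart factor Gata5 was at 5.89 and 1.94 against 19.6 and 25.8 TPM. The Fox family was divided, with 9 of 36 tested higher and 10 lower, and 1 reached the filter only through the posterior and 3 only through the anterior libraries.

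Among genes outside the lists, Wnt2 was at 2.17 and 1.94 TPM in the anterior and at 54.6 and 57.8 TPM in the posterior libraries (4.23 ± 0.12). Trh, the thyrotropin-releasing hormone precursor, was at 115 and 119 against 12 and 10.6 TPM (-3.26 ± 0.10). Apela, a ligand of the apelin receptor, was at 7.22 and 4.99 against 61.3 and 71.8 TPM (3.26 ± 0.16).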
